A study of Homo sapiens with 6 samples.

Results

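The data described here are the RNA levels of 10 genes of Wnt/β-catenin signaling (WNT5A, DKK1, SFRP1, LRP5, LRP6, APC, AXIN2, CTNNB1, TCF7L2 and LEF1) in human kidney tubular epithelial cells exposed to oxidized lipid. A gene was taken as a member when its name in the deposited expression table equalled one of these symbols, and all 10 were found, each in 1 of the 58825 rows. The cells were HK-2, an immortalized line derived from the proximal tubule of the human kidney. Of the 6 RNA-seq libraries, 3 came from untreated cells (Control) and 3 from cells given 25 μg/ml oxidized low-density lipoprotein (OX-LDL) for 48 h. Per the study's methods, cells were starved in low-serum medium before OX-LDL was added, and the labels give neither a vehicle nor a time for the Control group. HK-2 is a single line. The methods state that in vitro experiments were independently performed more than once, without tying this to the sequenced libraries. The labels do not say whether the 3 libraries of a group came from separate cultures, so the spread between them may be technical.

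Wnt proteins are secreted ligands that bind a Frizzled receptor together with the co-receptor LRP5 or LRP6. Without a ligand, a cytoplasmic complex built on AXIN and APC marks β-catenin, the product of CTNNB1, for degradation; when the receptors are engaged the complex is held back, and β-catenin enters the nucleus and acts with TCF/LEF factors on target genes. In the kidney the pathway is known for its part in tubule formation and for its reactivation after injury and in fibrosis. Because β-catenin is controlled mainly as a protein, and the protein is also part of E-cadherin junctions, the RNA levels given here do not measure the activity of the pathway.

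The libraries held between 15640337 and 19199402 read pairs, on the reading that about 4 deposited counts stand for 1 read pair, and the first principal component, with 34.8% of the variance, separated the groups. Levels are given as FPKM (read pairs set against transcript length and library size), a scale per length on which genes can be set side by side. A gene was taken as not detected in a library at 12 deposited counts or fewer, which is 3 read pairs. The labelled cell type was checked with 15 markers of tubular epithelium, whose summed level was 243.5 to 267 FPKM for Control against 293 to 328 FPKM for OX-LDL. Keratins, CDH2, CDH6, PAX8 and EPCAM made up most of it, whereas the proximal tubule genes AQP1, ANPEP, CUBN and SLC34A1 were at 46 counts or fewer in every library, LRP2 was at 0, and CDH1, which encodes E-cadherin, was at most 0.144 FPKM. GGT1, a brush-border enzyme of the proximal tubule, is listed under 2 identifiers between which the counting could split reads, so both values are uncertain. The first was at 3.13 to 18.2 FPKM over all libraries and the second fell (edgeR adjusted p = 0.0371) from 18.2, 0.0518 and 22.6 FPKM in Control to at most 0.0658 FPKM. PAX8, a factor of kidney tubules, fell from 46.6 ± 12.9 to 19.4 ± 4.17 FPKM (SD, n = 3 each, edgeR adjusted p = 0.0182), although the summed level of the list was higher in OX-LDL. Markers of endothelium summed to at most 0.122 FPKM. Leukocyte markers summed to 3.13 to 7.79 FPKM for Control against 9.17 to 14.0 FPKM for OX-LDL, nearly all of it CD68, with PTPRC and CD3E at 8 counts or fewer. The 7 fibroblast markers summed to 8.77 to 14.1 FPKM over all libraries, nearly all of it LUM, with DCN at 0. The part of these differences in the results below was not tested.

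To show the sequence next to the members that the results turn on, the 250 bases before the start site are given for CTNNB1, the member that rose, and for DKK1, a gene known as a target of the pathway whose level varied most among the abundant members. They were taken from RefSeq (GRCh38.p14), on the + strand, at chr3:41199255-41199504 for CTNNB1 and chr10:52314031-52314280 for DKK1. Capitals mark the core that TCF/LEF factors bind, spelled as CTTTG and then AA, AT, TA or TT and searched for on both strands, with no overlap between matches.
CTNNB1: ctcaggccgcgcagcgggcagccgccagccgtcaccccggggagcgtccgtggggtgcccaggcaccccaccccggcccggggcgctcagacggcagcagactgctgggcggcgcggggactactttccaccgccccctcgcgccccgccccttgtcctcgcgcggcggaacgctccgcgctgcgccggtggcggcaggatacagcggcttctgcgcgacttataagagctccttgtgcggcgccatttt
DKK1: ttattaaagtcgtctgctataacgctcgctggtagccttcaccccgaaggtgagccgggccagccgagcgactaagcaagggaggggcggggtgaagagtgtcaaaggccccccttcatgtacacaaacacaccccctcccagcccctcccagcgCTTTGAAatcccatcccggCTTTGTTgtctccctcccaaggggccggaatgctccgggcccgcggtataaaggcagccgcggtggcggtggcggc
The CTNNB1 stretch held none of these letters, and the DKK1 stretch held CTTTGAA beginning 95 bases and CTTTGTT beginning 76 bases before the start. Over the window of 300 bases that also takes in 50 bases after the start, at least 1 match was found in 2 of the 11 promoters listed for 7 of the members, the other being an internal promoter of TCF7L2. The same letters were found in 13.8% of all 35116 promoters of that length. A match describes the letters and not binding. The RefSeq start of CTNNB1 (41199505) lies inside the gene as the deposited table draws it, from 41194741, whereas the start of DKK1 is the same base in both. Promoter sequences of AXIN2, LRP6 and SFRP1 are not shown.

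Of the 10 genes, only CTNNB1 passed the test between OX-LDL and Control in edgeR's quasi-likelihood fit, with a rise of 1.50-fold. APC and LRP5 were fitted higher without passing the test, and the values of DKK1, LRP6 and TCF7L2 overlapped between the groups. WNT5A and AXIN2 were measured at low levels, and LEF1 and SFRP1 lay below the minimum of 0.1 FPKM for testing. Of the 8 genes tested, 1 rose and 0 fell at a Benjamini-Hochberg adjusted p under 0.05 in edgeR, against a background of 7.91% of all 19510 genes tested that rose, 7.42% that fell and 15.3% in all. None had a lower level at an unadjusted p under 0.05 or at an adjusted p under 0.05 in DESeq2 or limma, whereas DESeq2 called 2 members higher, beside 13.6% of the 16805 genes to which it gave an adjusted p (26.4% in either direction). The median log2 fold change of the 8 was 0.20, beside 0.00 over all genes tested. None of the 8 had a fold above 2 or below 0.5, limits that 6.36% of all genes tested passed together with an unadjusted p under 0.05.

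**Figure D1:**
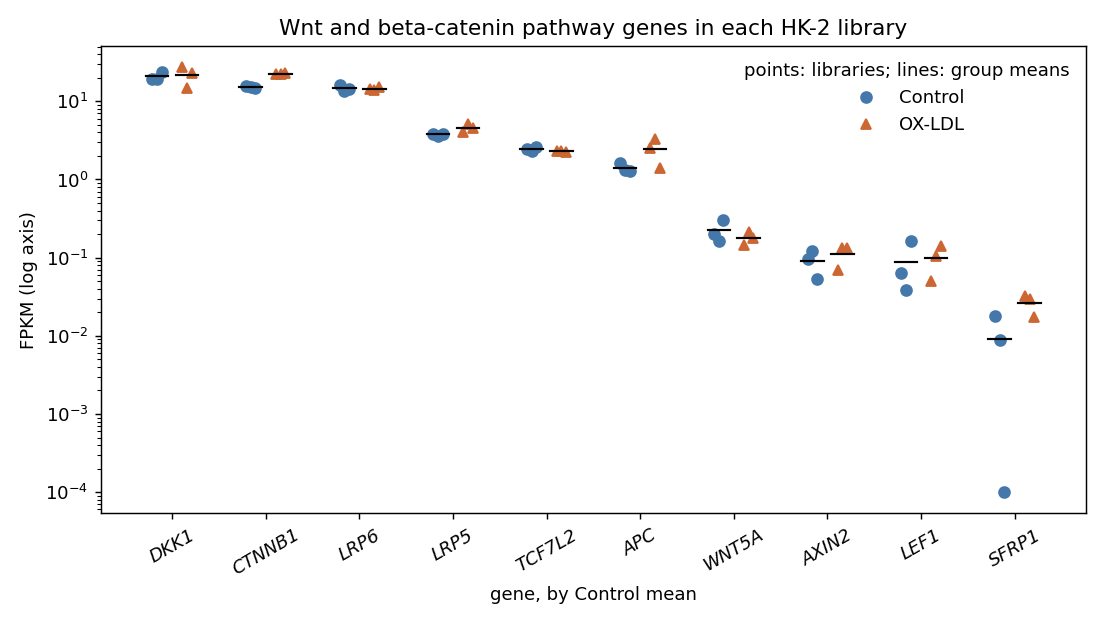
Level of each of the 10 genes in the 6 HK-2 libraries, in FPKM on a logarithmic axis. Each point is 1 library and each bar a group mean of 3 libraries, for Control and OX-LDL. CTNNB1 sits at 14.9 to 15.8 FPKM in Control and 22.3 to 22.7 in OX-LDL, while the genes of low level on the right spread widely within both groups, with a count of 0 for SFRP1 drawn at 0.0001 FPKM.

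CTNNB1 (chr3:41194741-41240443, + strand) encodes β-catenin, which carries the signal to the nucleus and also links E-cadherin to actin at cell junctions. Its level in FPKM was 15.8, 15.4 and 14.9 in the Control libraries against 22.3, 22.3 and 22.7 in the OX-LDL libraries. Every OX-LDL library was higher than every Control library, and the gap between the groups was wider than the range within either. The mean rose from 15.3 ± 0.442 to 22.5 ± 0.244 FPKM (SD, n = 3 each), a log2 fold change of 0.58 (SE 0.06, 95% interval 0.44 to 0.73, edgeR quasi-likelihood test with Benjamini-Hochberg adjustment, adjusted p = 0.00295). Leaving out each library in turn gave 0.56 to 0.61 with an edgeR adjusted p of 0.0068 to 0.0199, and the adjusted p ran from 7.25e-11 to 0.0238 over the other alternatives. CTNNB1 overlaps no other gene in the table. In bulk RNA, a change in the number of cells of a kind and a change in RNA per cell cannot be told apart.

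WNT5A, SFRP1 and DKK1 encode secreted proteins that act outside the cell. WNT5A (chr3:55465715-55489945, − strand) is a ligand known mainly for signaling that does not use β-catenin. Its level in FPKM was 0.201, 0.165 and 0.304 for Control against 0.145, 0.213 and 0.179 for OX-LDL, from 80 to 185 deposited counts per library. The highest and the lowest library belonged to different groups and the remaining values overlapped. The log2 fold change was −0.29 (SE 0.31, 95% interval −1.03 to 0.45, edgeR adjusted p = 0.589), an interval that held both a fall and a rise. SFRP1 (chr8:41261962-41309473, − strand) encodes a secreted Frizzled-related protein that binds Wnt ligands. It had 8, 4 and 0 deposited counts in the Control libraries and 12, 13 and 8 in those of OX-LDL, at or next to the limit of detection, and no fold change is given.

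DKK1 (chr10:52314281-52317657, + strand) encodes a secreted inhibitor that binds LRP5 and LRP6 and is itself a known target of the pathway. It was the most abundant member in Control, at 19.4, 19.6 and 23.6 FPKM. Under OX-LDL it reached 27.4, 14.7 and 23.0 FPKM. The OX-LDL libraries thus held both the highest and the lowest value of all 6, with a range of 1.86-fold against 1.22-fold within Control. The means were 20.8 ± 2.36 and 21.7 ± 6.45 FPKM (SD, n = 3 each), and the log2 fold change of 0.09 (SE 0.22, 95% interval −0.43 to 0.61) did not pass the test (edgeR adjusted p = 0.831). Its sign followed single libraries: it was −0.10 without OX-LDL replicate 1 and 0.31 without OX-LDL replicate 2, with an edgeR adjusted p of at least 0.167 in each.

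LRP5 and LRP6 encode the related co-receptors that take up the signal beside Frizzled. LRP5 (chr11:68312591-68449275, + strand) was measured at 3.86, 3.63 and 3.80 FPKM in untreated cells and at 4.01, 5.11 and 4.50 FPKM after OX-LDL. The groups did not overlap, although OX-LDL replicate 1 lay close to the Control libraries. CTNNB1 and LRP5 were the 2 members with all OX-LDL values higher, against 16.8% of all genes tested. No member had all of them lower, against 20.5%, and 37.2% of all genes did not overlap in either direction. The log2 fold change of LRP5 was 0.30 (SE 0.11, 95% interval 0.03 to 0.57), with an unadjusted p of 0.0338 and an edgeR adjusted p of 0.129. It stayed between 0.21 and 0.39 when each library was left out, with the adjusted p never under 0.0897. LRP6 (chr12:12116025-12267044, − strand) was more abundant in every library, at 16.3, 13.6 and 14.3 FPKM in untreated cells and 14.4, 13.9 and 15.2 FPKM after OX-LDL. The OX-LDL values lay inside the Control range. Its log2 fold change was 0.01 (SE 0.09, 95% interval −0.21 to 0.23, edgeR adjusted p = 0.950), with a sign that turned under several alternatives. The ratio of LRP5 to LRP6 within a library, 0.257 ± 0.0172 in Control and 0.313 ± 0.0468 in OX-LDL (SD, n = 3 each), was higher in each OX-LDL library (exact two-sided permutation p = 0.1, the smallest that 3 against 3 libraries allow, 0.2 when adjusted over the 2 ratios computed).

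APC and AXIN2 encode parts of the complex that marks β-catenin for degradation. APC (chr5:112707498-112846056, + strand), a scaffold known as a tumor suppressor, was at 1.61, 1.34 and 1.302 FPKM in the Control libraries. In the OX-LDL libraries it was at 2.54, 3.32 and 1.41 FPKM. OX-LDL replicates 1 and 2 lay above every Control library, whereas replicate 3 lay among them, and the range within OX-LDL was 2.36-fold. The mean went from 1.42 ± 0.166 to 2.42 ± 0.963 FPKM (SD, n = 3 each). The log2 fold change of 0.80 was the largest of the 8 genes tested but had a wide error (SE 0.29, 95% interval 0.11 to 1.50), with an unadjusted p of 0.0295 and an edgeR adjusted p of 0.118. Without OX-LDL replicate 3 it was 1.08 (edgeR adjusted p = 0.0289), without OX-LDL replicate 2 it was 0.50, with an adjusted p of up to 0.271 over the libraries left out, and DESeq2 with all libraries gave 0.81 (adjusted p = 0.0225). APC was therefore called or not according to 1 library and to the tool. With CTNNB1 and LRP5, it was 1 of 3 members with an unadjusted p under 0.05, against 30.4% of all genes tested.

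AXIN2 (chr17:65528563-65561648, − strand) is a scaffold of the same complex and one of the most widely used target genes of the pathway. Its level in FPKM was 0.0971, 0.123 and 0.0527 for Control against 0.0694, 0.135 and 0.134 for OX-LDL, from 23 to 64 counts per library. The groups overlapped, and the mean over all libraries, 0.102 FPKM, lay just above the minimum for testing. The log2 fold change was 0.32 (SE 0.45, 95% interval −0.75 to 1.40, edgeR adjusted p = 0.688), and it ran from 0.05 to 0.58 when each library was left out.

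TCF7L2 and LEF1 encode factors that bind DNA and through which β-catenin acts on its targets. TCF7L2 (chr10:112950247-113167678, + strand) was measured at 2.49, 2.33 and 2.59 FPKM in untreated cells and 2.34, 2.31 and 2.24 FPKM after OX-LDL. The groups overlapped narrowly, and the log2 fold change of −0.07 (SE 0.10, 95% interval −0.31 to 0.16) did not pass the test (edgeR adjusted p = 0.673). LEF1 (chr4:108047545-108168956, − strand) had 30, 19 and 73 deposited counts in the Control libraries and 21, 54 and 70 in those of OX-LDL, with a mean of 0.0941 FPKM over all libraries. Both groups held a low and a high library. In a fit without a minimum level its log2 fold change was 0.22 (edgeR adjusted p = 0.885). TCF7L2 made up 72.4 ± 3.14% of the summed FPKM of the 4 TCF/LEF genes (TCF7, TCF7L1, TCF7L2 and LEF1) in Control and 72.7 ± 1.91% in OX-LDL (SD, n = 3 each, exact two-sided permutation p = 0.9).

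**Figure D2:**
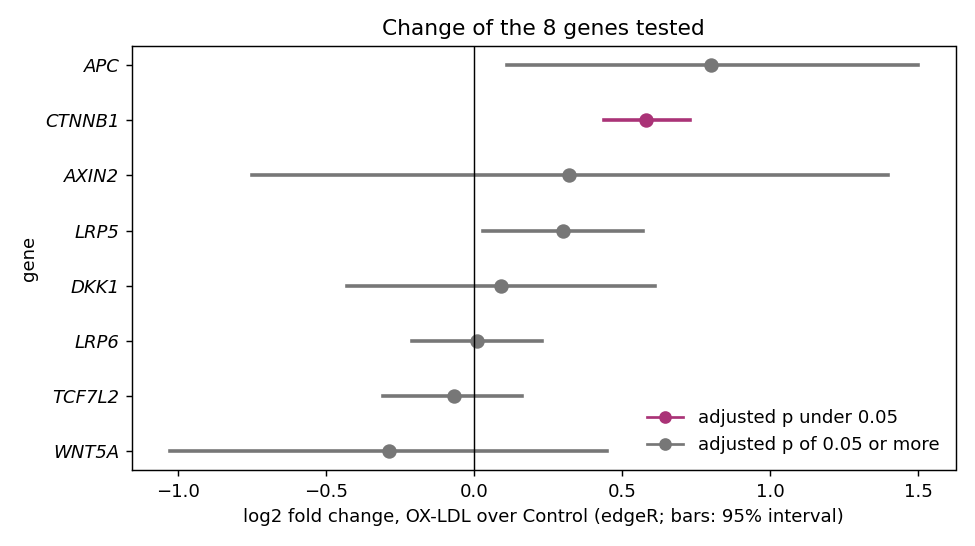
Log2 fold change, OX-LDL over Control, of the 8 genes tested with edgeR, with the 95% interval as a bar. The interval of CTNNB1, from 0.44 to 0.73, is narrow, and those of AXIN2, WNT5A and APC are the widest. The intervals of CTNNB1, APC and LRP5 lie above 0, and only CTNNB1, drawn in color, passed the adjusted p.

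The levels of the members spanned a wide range. In Control, DKK1 was highest, followed by CTNNB1 and LRP6, then LRP5, TCF7L2, APC, WNT5A, AXIN2, LEF1 and SFRP1. The ranges of neighbours in this order overlapped for CTNNB1 with LRP6 and for AXIN2 with LEF1, and were separate elsewhere. In OX-LDL, CTNNB1 moved to the head of the order and APC came before TCF7L2, with overlapping ranges for CTNNB1 with DKK1, DKK1 with LRP6, APC with TCF7L2 and AXIN2 with LEF1. The few counts of AXIN2, LEF1, WNT5A and SFRP1 limit the precision of their values. In the table, 7 of the 10 members overlap at least 1 other gene, but the overlapping genes had at most 17 counts in any library, and those on the same strand had 0.

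**Figure D3:**
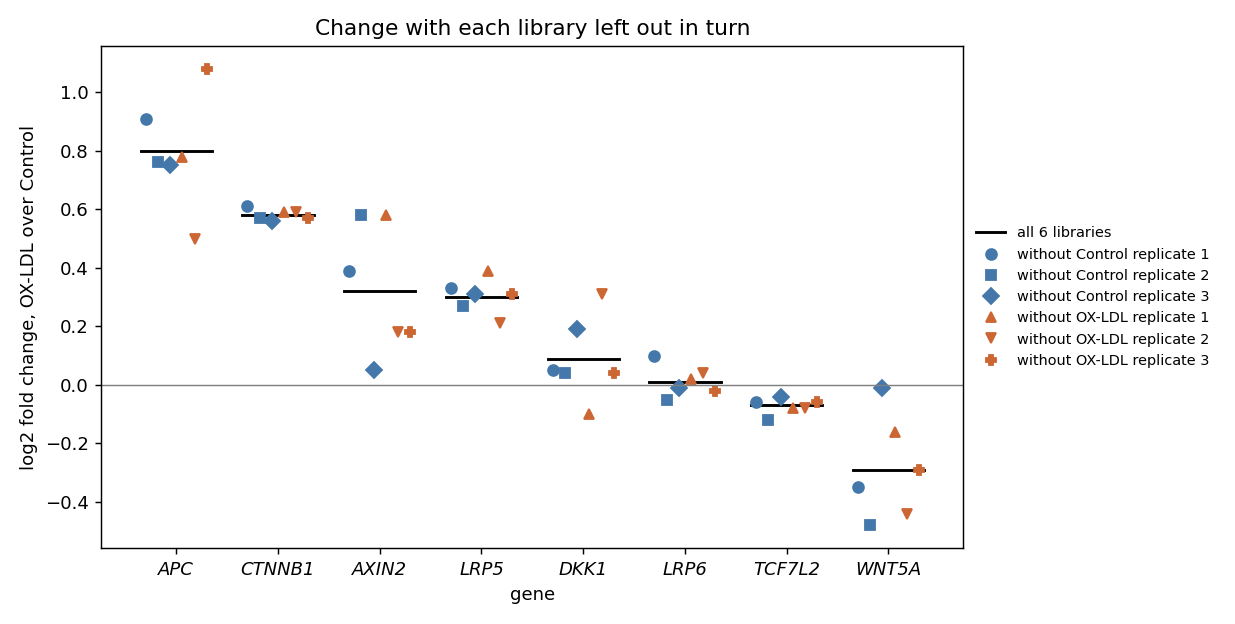
Log2 fold change of the 8 genes tested, from all 6 libraries and after leaving out each library in turn (edgeR). The black line is the value from all libraries and each symbol the value without 1 library. CTNNB1 stays between 0.56 and 0.61, APC moves between 0.50 and 1.08, and DKK1 moves from −0.10 to 0.31.

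To place the members in their pathway, 106 other Wnt genes were read from the same fit, grouped by role. Of the 75 that were tested, 9 rose and 13 fell, which is 29.3% called beside 15.3% of all genes. Their median log2 fold change was −0.05. These genes were chosen with earlier results of these data known, so the higher share is not independent of those results. Of the 158 genes that the deposited table assigns to the KEGG Wnt pathway, a list chosen after the table was seen, 111 were tested, of which 10 rose and 12 fell (19.8%). These counts depended on the libraries included, as did those over all genes. When 1 library was left out, between 8 and 21 of the 22 calls were kept, fewest without Control replicate 2. Over all genes, the number called went from 2991 to between 1161 and 2943 in the same fits, also fewest without Control replicate 2. The calls of 7 genes (CSNK1A1, CREBBP, TNFRSF19, JUN, VEGFA, MMP7 and NRCAM) were kept each time.

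Upstream of the members, 6 of 18 other Wnt ligand genes were tested, and another 6 had 0 counts in all libraries. In edgeR and limma 0 were called, where edgeR called 15.3% of all genes. At an edgeR unadjusted p under 0.05, 2 were lower, and DESeq2 called 2 lower, beside 12.7% of all genes with an adjusted p. The most abundant was WNT7B, with a log2 fold change of 0.07 that turned to −0.14 without Control replicate 3. WLS, which carries Wnt proteins to the cell surface, fell from 21.0 ± 1.75 to 14.0 ± 1.82 FPKM (SD, n = 3 each, log2 fold change −0.55, SE 0.11, edgeR adjusted p = 0.0227). Among receptors, the Frizzled genes FZD2 (log2 fold change 0.86, SE 0.17, edgeR adjusted p = 0.0205) and FZD6 (0.48, SE 0.11, adjusted p = 0.0303) rose. These were 2 of the 10 receptor genes tested, beside 7.91% of all genes, and the other 8 did not pass the test in edgeR. DESeq2 called 4 receptor genes higher, beside 13.6% of all genes with an adjusted p. At an edgeR unadjusted p under 0.05, 4 were higher and 0 lower, where 30.4% of all genes passed in either direction. WLS and FZD2 each lost the call in 4 of the 6 fits that left out a library, and FZD6 in each such fit except that without OX-LDL replicate 2. KREMEN1, a receptor for DKK1, rose from 1.53 ± 0.240 to 2.55 ± 0.273 FPKM (SD, n = 3 each, log2 fold change 0.76, SE 0.15, edgeR adjusted p = 0.02), a call lost without Control replicate 2 or OX-LDL replicate 3. KREMEN2 was fitted lower without passing the test (log2 fold change −0.61, SE 0.23, edgeR unadjusted p = 0.0324, adjusted p = 0.126). The secreted inhibitors SFRP4 (log2 fold change −1.41, edgeR adjusted p = 0.0161) and NOTUM (−1.29, adjusted p = 0.0385) fell from levels under 1 FPKM and are named here after their values were seen, with NOTUM lost in every fit that left out a library and SFRP4 in 4. DKK3, the most abundant of that group, had a log2 fold change of 0.10. Of the R-spondin group, 4 of 9 were tested and 0 were called in edgeR, DESeq2 or limma. None was at an edgeR unadjusted p under 0.05, where 30.4% of all genes passed. LGR4, its most abundant gene, had a log2 fold change of 0.08 whose sign turned in limma, and a range of 3.25-fold within OX-LDL.

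Around the members of the destruction complex, 3 of 18 genes fell and 0 rose in edgeR, or 16.7% called beside 15.3% of all genes, with a median log2 fold change of −0.15. At an unadjusted p under 0.05, 7 were lower and 2 higher, where 30.4% of all genes passed in either direction. DESeq2 called 6 lower, beside 12.7% of all genes with an adjusted p, and 1 higher, beside 13.6%. AXIN1, the ubiquitous relative of AXIN2, fell from 4.49 ± 0.0868 to 2.84 ± 0.366 FPKM (SD, n = 3 each, log2 fold change −0.63, SE 0.11, edgeR adjusted p = 0.0148). GSK3B (−0.35, SE 0.08, edgeR adjusted p = 0.0264) and CSNK1A1 (−0.45, SE 0.08, adjusted p = 0.0117), which encode kinases that phosphorylate β-catenin, also fell. GSK3A, of the same list, was fitted higher without passing the test (0.24, SE 0.09, edgeR unadjusted p = 0.031, adjusted p = 0.122). The call of AXIN1 was lost without Control replicate 2, and that of GSK3B in each fit that left out a library except that without OX-LDL replicate 2. AXIN2 itself had means of 0.0910 and 0.113 FPKM, far below AXIN1 in both groups. TNKS2 was the most abundant of these genes, with a log2 fold change of −0.17.

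Among 14 nuclear partners of β-catenin and TCF/LEF factors, 1 rose and 3 fell, beside 7.91% and 7.42% of all genes tested. The corepressor TLE4 rose by a log2 fold change of 0.77 (SE 0.14, edgeR adjusted p = 0.0158), a call lost without OX-LDL replicate 1. The coactivator CREBBP fell from 8.64 ± 0.414 to 5.30 ± 0.101 FPKM (SD, n = 3 each, log2 fold change −0.67, SE 0.06, edgeR adjusted p = 0.00224), and its relative EP300 fell by 0.31 (SE 0.07, adjusted p = 0.0275) on the log2 scale. BCL9, which binds β-catenin, fell by 0.32 (SE 0.08, edgeR adjusted p = 0.0438). The call of EP300 was lost in 4 of the 6 fits that left out a library, and that of BCL9 in 5. TLE1, the most abundant of them, had a log2 fold change of 0.32 with an edgeR adjusted p of 0.0504. It passed in DESeq2 (adjusted p = 0.0177). In edgeR it passed with RLE factors (adjusted p = 0.0477), a minimum of 1 FPKM (0.0309) or counts divided by 4 (0.0472). It did not pass in limma or in any edgeR fit that left out a library (adjusted p of 0.0651 to 0.123).

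Of 18 genes known as targets in other cells, 16 were tested, of which 5 rose and 4 fell, beside 7.91% and 7.42% of all genes, with a median log2 fold change of −0.07. MMP7, a matrix metalloproteinase, rose from 1.69 ± 0.497 to 13.7 ± 0.990 FPKM (SD, n = 3 each, log2 fold change 3.05, SE 0.23, edgeR adjusted p = 0.00121), and TNFRSF19 rose from 11.01 ± 1.225 to 19.4 ± 1.37 FPKM (0.85, SE 0.11, adjusted p = 0.00604). PLAUR, the urokinase receptor, rose by a log2 fold change of 1.09 (SE 0.22, edgeR adjusted p = 0.0203), a call lost in 4 of the 6 fits that left out a library. VEGFA (−1.75, SE 0.16, edgeR adjusted p = 0.00207), JUN (−1.03, SE 0.12, adjusted p = 0.00432) and NRCAM (−1.09, SE 0.15, adjusted p = 0.00771) fell. CCND1, the target with the highest mean over all 6 libraries though not in Control, where JUN was higher, had a log2 fold change of −0.27 and did not pass the test (edgeR adjusted p = 0.293). MYC varied widely within both groups, at 0.986, 24.7 and 1.26 FPKM in Control and 16.1, 6.04 and 0.978 FPKM in OX-LDL. It did not pass the test (log2 fold change −0.18, SE 1.37, edgeR adjusted p = 0.948). Called targets thus lay in both directions, and AXIN2 and DKK1, the targets among the members, did not pass the test.

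**Figure D4:**
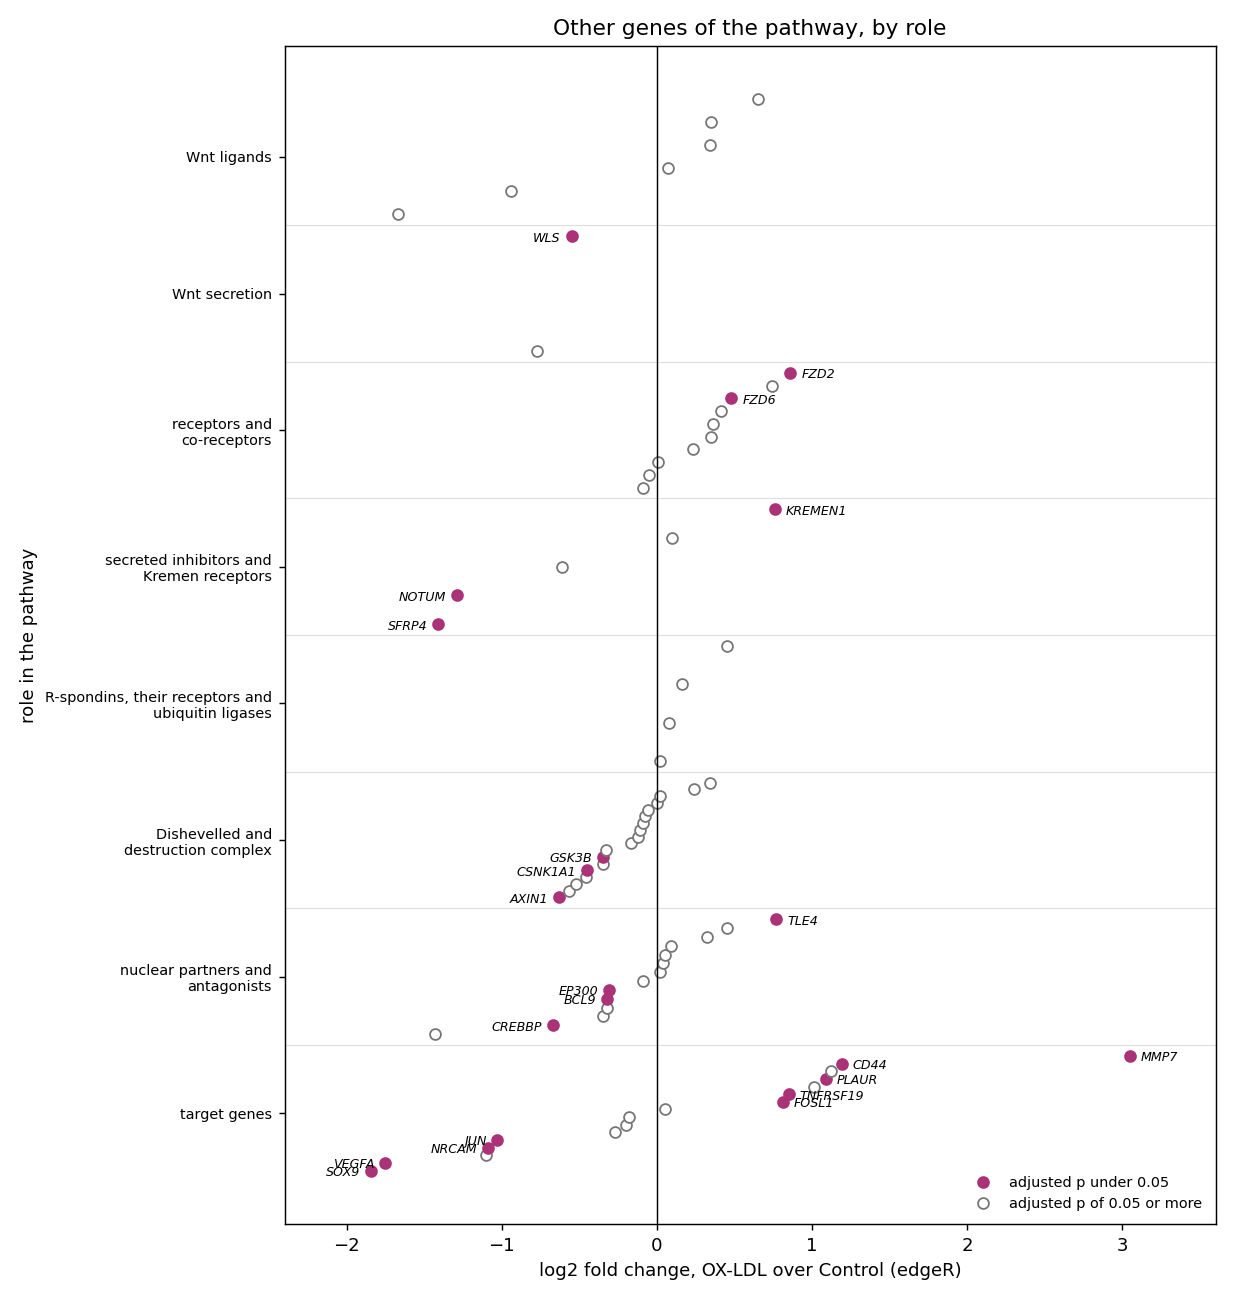
Log2 fold change, OX-LDL over Control, of the 75 other pathway genes tested with edgeR, by role in the pathway. Each point is 1 gene, and filled points, which carry the gene's name, passed an adjusted p of 0.05. Of 18 genes of the destruction complex, the 3 called lie below 0, and of 10 receptor genes, the 2 called lie above 0. The called targets, 9 of 16, lie on both sides. When each library was left out in turn, CSNK1A1 kept its call in 6 of 6 fits and AXIN1 in 5. FZD2 kept it in 2, and GSK3B and FZD6 in 1 each.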

How the data were processed

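Poly(A) RNA of 3 Control and 3 OX-LDL samples of HK-2 cells was sequenced as read pairs. The authors deposited 1 table with FPKM values, which they set against transcript length and library size, and with estimated counts, which are whole numbers. A count of 0 is listed at 0.0001 FPKM. The submitters' processing notes name cutadapt 1.9, HISAT2 2.0.4, StringTie 1.3.4d, edgeR, DESeq2 and GRCh38, without their roles. The annotation release and the strand setting of the counting are not given in the sources used here. Counts at 4, 8 and 12 were 3.26, 2.95 and 2.13 times as frequent as their neighbours, from which a read pair was taken to give about 4 counts. Standard errors from the fit rest on the spread between libraries.

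The deposited estimated counts of those 19510 genes whose mean reached 0.1 FPKM were fitted with edgeR 4.0.16 (R 4.3.3, TMM, glmQLFit and glmQLFTest, group as the only term), with Benjamini-Hochberg adjustment over all of them. Genes were matched by name and groups taken from the labels. Pairs of libraries within a group had a chi-square per gene between 9.54 and 16.3 on the scale of read pairs, so none was counted as a repeat. The fits were tested on simulated data. The members and the lists of other pathway genes were chosen with earlier results of these data known. Named among the latter were those called with a mean of 1 FPKM or more (at most 6 per list, by p) and the most abundant gene of each list. SFRP4, NOTUM, KREMEN2, GSK3A and MYC were named besides, after their values were seen. Alternatives were DESeq2 1.42.0, limma 3.58.1 on log2(FPKM + 0.1) and log2(FPKM + 1), RLE factors, no minimum or a minimum of 1 FPKM, counts divided by 4, leaving out each library in turn and a block for the replicate number. Promoter sequences and start sites are those of RefSeq on GRCh38.p14, and gene positions those of the table.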

Additional observations from a re-analysis of the deposited data

How the results depend on the processing

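Over all genes, 2991 were called, 4430 in DESeq2, 1636 with a block for the replicate number and 1161 to 2943 when each library was left out, fewest without Control replicate 2. Among the members, 1 was called, 2 in DESeq2 and 1 to 2 when each library was left out, the second being APC. Of the other pathway genes, 22 were called, 34 in DESeq2, 13 with the block and 8 to 26 when each library was left out. The calls lost with the block were those of BCL9, EP300, FZD2, FZD6, GSK3B, NOTUM, PLAUR, SFRP4 and TLE4. Samples with the same replicate number deviated from their group means with correlations of −0.109, −0.0343 and −0.00154. No sample correlated best with its own number, so the numbers were not taken to pair the samples. The sign turned for LRP6 in limma on log2(FPKM + 0.1) (−0.02) and log2(FPKM + 1) (−0.01), and with libraries left out (range −0.05 to 0.10). It turned for DKK1 when libraries were left out (−0.10 to 0.31) and for WNT7B (−0.14 to 0.23). It turned for LGR4 in limma with these pseudocounts (−0.07 and −0.04), with the block (−0.02) and with libraries left out (−0.23 to 0.44). None of these values had passed the test, and the cause was not tested. Of the values of the members under all alternatives, 102 kept their direction and their side of the threshold, 6 turned sign as above, and 2 were APC passing the test.

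At about 4 deposited counts per read pair, WNT5A, AXIN2, LEF1 and SFRP1 rest on few reads, and 3 libraries per group leave wide intervals for APC and DKK1.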
